A study of Mus musculus with 2 samples.

Results

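The cells described here were CD8 T cells from the pancreas of NOD mice. They carried Ccl5 transcripts together with transcripts of the inhibitory receptors Pdcd1, Lag3 or Havcr2, and few transcripts of 7 cell cycle genes. They were chosen by their unique molecular identifiers (UMIs, each standing for 1 captured mRNA molecule). A barcode was taken when it had at least 200 genes, at most 10% mitochondrial UMIs, at least 1 UMI of Cd3d, Cd3e and Cd3g together, at least 2 of Cd8a and Cd8b1, none of Cd4, at most 1 of Cd79a, at least 2 of Ccl5, at least 2 of Pdcd1, Lag3 and Havcr2 together, and fewer than 4 over 7 cell cycle genes. This left 195 of 3913 cells, 50 of 1109 at 7 weeks and 145 of 2804 at 12 weeks, called receptor-positive cells below. The levels of the genes in this rule chose the cells and are given as descriptions only.

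The study used NOD/ShiLtJ females, an inbred strain that develops autoimmune diabetes on its own. Their CD45.1+ pancreatic cells, which carry the common leukocyte antigen, were isolated on a flow sorter and made into 10x Genomics Chromium 3' single-cell libraries. The animals were 7 weeks old in 1 library and 12 weeks old in the other. The labels name no treatment, transgene or islet isolation, and do not give how many mice were pooled. With 1 library per age there was no replicate check and no test, age cannot be told apart from library, and every interval below covers counting error at 95% and not the variation between mice or cells.

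CD8 T cells kill cells that display a recognised peptide on MHC class I, and in NOD mice they take part in the loss of insulin-producing beta cells. Cells that meet antigen again and again keep inhibitory receptors on their surface: PD-1 (Pdcd1) recruits phosphatases to the T cell receptor, LAG-3 (Lag3) binds MHC class II, and TIM-3 (Havcr2) marks chronically stimulated effector cells. The transcription factor TOX is known for holding T cells in this state, and TCF-1 (Tcf7) for a self-renewing subset that feeds it.

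In the files' build, mm10, Pdcd1 (ENSMUSG00000026285) lies on chromosome 1 from 94038305 to 94052553 on the minus strand. Lag3 (ENSMUSG00000030124) lies on chromosome 6 from 124904361 to 124911705, also on the minus strand, and Havcr2 (ENSMUSG00000020399) on chromosome 11 from 46454935 to 46481255 on the plus strand. Ccl5 (ENSMUSG00000035042, minus strand, 83525778 to 83530518), Ccl3 (ENSMUSG00000000982, minus strand, 83647844 to 83649355) and Ccl4 (ENSMUSG00000018930, plus strand, 83662584 to 83664683) sit in 1 stretch of chromosome 11. Xcl1 (ENSMUSG00000026573) lies on chromosome 1 from 164931644 to 164935527, and Tox (ENSMUSG00000041272) on chromosome 4 from 6686353 to 6991557, both on the minus strand.

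Promoters are shown for receptors of the rule and for chemokines described below, because NF-kappaB, NFAT and AP-1, the factors downstream of the T cell receptor, bind short motifs there. RefSeq start sites on GRCm38.p6 were matched for 4 of 8 genes looked up. Each sequence runs 5′ to 3′ on the gene's strand from 250 bases before to 50 bases after the start. Capitals mark GGAAA, the core of NFAT and many NF-kappaB sites, read on either strand (TTTCC on the other), and the AP-1 motif TGANTCA, read the same way on both strands. The motifs cannot overlap each other.
Pdcd1, chr1:94052504-94052803, minus strand: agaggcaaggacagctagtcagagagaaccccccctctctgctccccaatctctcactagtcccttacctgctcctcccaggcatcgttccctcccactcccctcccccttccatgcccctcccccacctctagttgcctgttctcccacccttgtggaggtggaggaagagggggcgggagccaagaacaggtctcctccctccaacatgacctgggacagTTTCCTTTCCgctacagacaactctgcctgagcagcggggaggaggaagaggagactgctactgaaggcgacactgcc
Havcr2, chr11:46454681-46454980, plus strand: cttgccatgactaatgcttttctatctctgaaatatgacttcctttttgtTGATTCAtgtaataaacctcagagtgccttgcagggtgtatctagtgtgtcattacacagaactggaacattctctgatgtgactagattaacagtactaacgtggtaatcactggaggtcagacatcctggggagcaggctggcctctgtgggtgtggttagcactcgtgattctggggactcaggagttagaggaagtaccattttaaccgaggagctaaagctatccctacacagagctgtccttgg
Ccl3, chr11:83649329-83649628, minus strand: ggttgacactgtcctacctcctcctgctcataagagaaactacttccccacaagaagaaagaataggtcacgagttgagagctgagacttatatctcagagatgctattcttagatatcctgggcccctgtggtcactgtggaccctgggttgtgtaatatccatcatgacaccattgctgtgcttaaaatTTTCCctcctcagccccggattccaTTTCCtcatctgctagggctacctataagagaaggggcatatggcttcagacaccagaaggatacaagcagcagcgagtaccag
Xcl1, chr1:164935473-164935772, minus strand: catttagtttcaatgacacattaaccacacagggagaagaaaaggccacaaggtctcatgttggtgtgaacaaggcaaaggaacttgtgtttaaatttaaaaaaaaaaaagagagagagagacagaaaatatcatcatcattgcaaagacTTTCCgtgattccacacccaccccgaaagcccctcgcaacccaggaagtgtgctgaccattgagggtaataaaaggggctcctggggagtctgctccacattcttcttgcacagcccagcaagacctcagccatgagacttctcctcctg
GGAAA was found 2 times in the promoter of Pdcd1, 2 times in that of Ccl3 and 1 time in that of Xcl1, and was not found in that of Havcr2. TGANTCA was found 1 time, in Havcr2. Of 32851 promoters of the same length, 61.3% held GGAAA and 7.81% held TGANTCA, so a match to the shorter motif is common. A match describes letters and says nothing of binding.

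The receptor-positive cells held 369211 UMIs at 7 weeks and 1055316 at 12 weeks, with medians of 6124.5 and 6047 UMIs and of 2050.5 and 1953 genes per cell. They were compared with 44 and 75 receptor-low cells, which passed every other gate but had 0 or 1 receptor UMI and had median UMIs of 5969.5 and 4978. Beside them stood 24 and 110 naive-type CD8 T cells, which had no Ccl5 or receptor UMI and at least 2 UMIs over a set of naive T cell genes that includes Lef1, Ccr7 and Dapl1. Cycling CD8 T cells numbered 23 and 58, with medians of 18130 and 15505 UMIs. The libraries shared 2 barcodes, none of them a receptor-positive cell.

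Not every barcode that met the rule looked like a T cell. At 12 weeks, 6 of the 145 carried between 17 and 1235 UMIs of the MHC class II genes Cd74 and H2-Aa, and 4 of the 6 had no Cd8b1 UMI. The others held at most 7 such UMIs at 7 weeks and 6 at 12 weeks. The barcode with 1235 class II UMIs also held 297 of Lyz2, a lysozyme gene of macrophages, and 104 of Cxcl9, while those with 169 and 108 held 12 and 13 of Siglech, a plasmacytoid dendritic cell marker. Among the receptor-low cells, 2 at each age passed the same limit of 10 UMIs. These are called class II-rich cells, results that rest on them are given with and without them, and whether they were doublets or other cell types that carry CD8 and receptor transcripts was not tested.

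**Figure D1:**
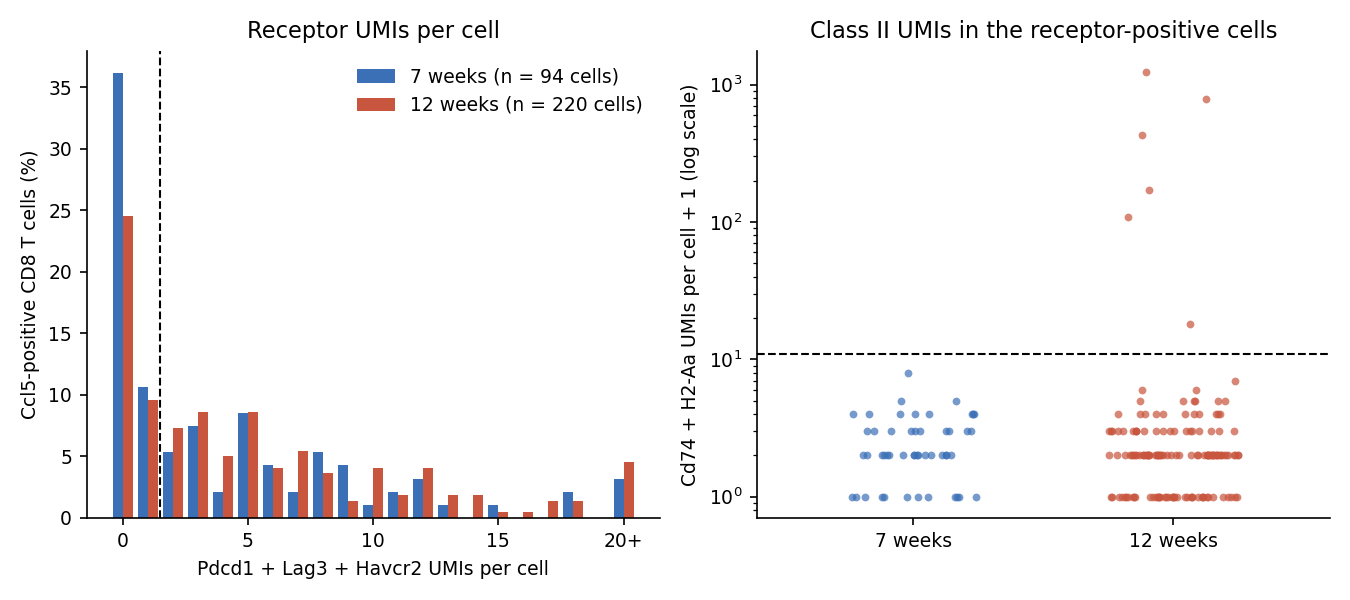
Left, percent of Ccl5-positive CD8 T cells (94 at 7 weeks, 220 at 12 weeks) by their summed Pdcd1, Lag3 and Havcr2 UMIs, with the rule's limit dashed and cells of 20 or more UMIs pooled; right, Cd74 plus H2-Aa UMIs of each receptor-positive cell on a log scale after adding 1, with the limit of 10 UMIs dashed. The most common value at both ages was 0 receptor UMIs, and 6 cells at 12 weeks stood above the class II limit against 0 at 7 weeks.

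Markers of other lineages were summed in the receptor-positive cells without the class II-rich cells. The 6 B cell markers, which include Cd74 and H2-Aa, had a summed level of 236 and 216 CPM, where CPM is a gene's count scaled to 1e+06 UMIs of the cells pooled and values are given for 7 and then 12 weeks. The 8 macrophage and monocyte markers summed to 347 and 282 CPM, against 218 and 246 CPM in receptor-low cells. They were seen in 43 of 50 and 112 of 139 receptor-positive cells, and their source was not tested. The 6 dendritic cell markers summed to 10.8 and 3.16 CPM. The 7 NK and innate lymphocyte markers summed to 206 and 65.3 CPM, in 23 of 50 and 47 of 139 cells, against 218 and 95.9 CPM in receptor-low cells, and of these Klrb1c and Klra8 were at 0 at both ages and Ncr1 also at 12 weeks. The 4 CD4 and regulatory T cell markers summed to 138 and 101.1 CPM, in 17 of 50 and 46 of 139 cells, against 46.6 and 67.4 CPM in receptor-low cells, and their part in the results was not tested. All 5 gamma delta and innate-type markers, Zbtb16, Sox13, Cd163l1 and Il23r among them, were at 0 at both ages.

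The labelled markers were abundant by construction. Ccl5, a chemokine of effector and memory CD8 T cells, stood at 15151 and 16052 CPM. Cd8a stood at 1295 and 1202 CPM, against 683 and 622 CPM in naive-type cells and 667 and 608 CPM in receptor-low cells. Cd8b1, the partner chain, stood at 528 and 550 CPM, against 448 and 503 CPM in receptor-low cells.

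Of Ccl5-positive CD8 T cells below the cycle limit, receptor-positive cells made up 53.2% (exact binomial interval 42.6 to 63.6) at 7 weeks. At 12 weeks they made up 65.9% (59.2 to 72.1). The ratio of the shares was 1.24, with an interval of 0.893 to 1.74. That interval treats the cell counts as Poisson counts over fixed totals. It is too wide for shares of this size, so its including 1 decides nothing. Of all kept cells, receptor-positive cells were 4.51% and 5.17%, and of all CD8 T cells 29.2% and 31.2%. When every cell was thinned to 2000 UMIs before the rule was applied, the shares were 39.3% and 47.5%. Just inside the receptor limit, 5 and 16 cells had exactly 2 receptor UMIs, and just outside it 10 and 21 had exactly 1. Among cycling CD8 T cells, 20 of 23 and 51 of 58 also met the Ccl5 and receptor limits, at the greater depth given above.

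Most receptor-positive cells carried Pdcd1 and Lag3 together. The pair without Havcr2 was seen in 34 of 50 cells (68.0%, 53.3 to 80.5) at 7 weeks and 77 of 145 (53.1%, 44.6 to 61.4) at 12 weeks. All 3 transcripts were seen in 4 cells (8.0%, 2.22 to 19.2) and 21 cells (14.5%, 9.19 to 21.3). Lag3 alone was carried by 6 and 26 cells, Pdcd1 alone by 3 and 7, and Havcr2 alone by 0 and 2. The intervals of the 2 ages overlapped for each of these 5 patterns.

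**Figure D2:**
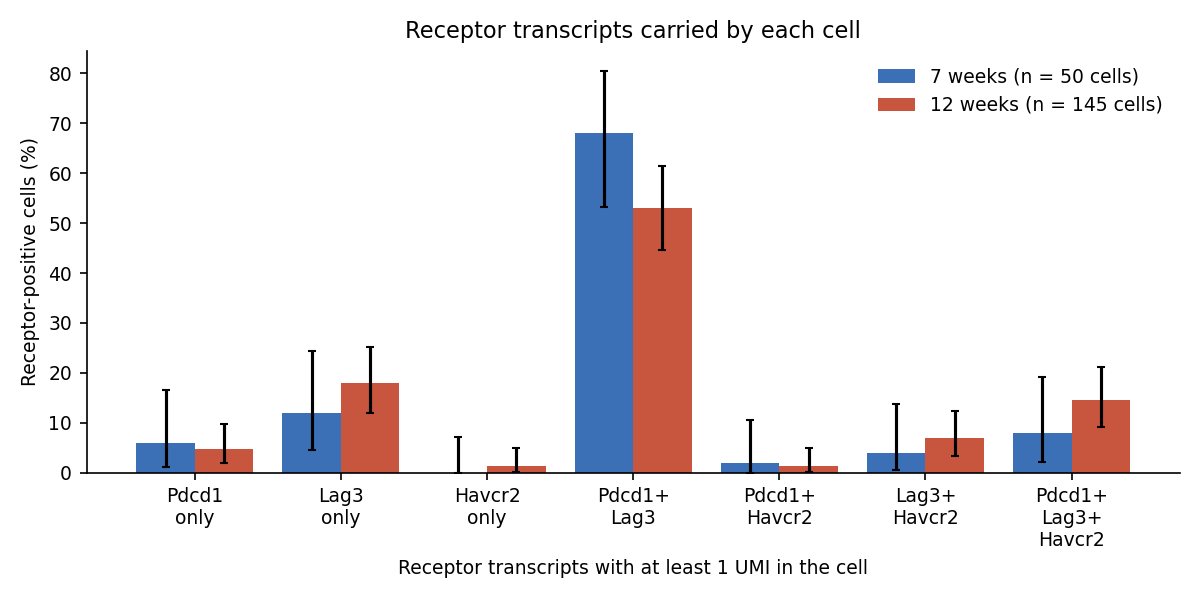
Percent of receptor-positive cells (50 at 7 weeks, 145 at 12 weeks) by which of the 3 receptor transcripts they carried, with exact binomial 95% intervals as bars. Pdcd1 with Lag3 was the most common combination at both ages, at 68.0% and 53.1%.

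By level, Pdcd1 stood at 471 and 373 CPM. It had a median of 3 and 2 UMIs per cell and at most 12 and 14. Lag3 stood at 582 and 726 CPM, with medians of 3.5 and 4 UMIs and at most 20 and 38. Havcr2 stood at 21.7 CPM (9.37 to 42.8), from 8 UMIs in 7 cells, and at 70.1 CPM (55.1 to 88.0), from 74 UMIs in 35 cells. Without the class II-rich cells the levels at 12 weeks were 409, 799 and 67.4 CPM, and Havcr2 was in 30 of 139 cells. The 12 over 7 week ratio of Havcr2 was then 3.11 (1.49 to 7.51), that of Lag3 1.37 (1.18 to 1.604) and that of Pdcd1 0.867 (0.723 to 1.04). In cells thinned to 2000 UMIs, Havcr2 was found in 2.0% and 11.7% of receptor-positive cells and in 0% and 0.45% of B cells, which should lack it and had unthinned medians of 4957 and 4592 UMIs. Havcr2 was part of the rule, so its excess over B cells is favoured by the gate and is a description only.

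Beyond the receptors that defined them, the receptor-positive cells had higher levels of chemokine genes, Tox and other inhibitory receptors than receptor-low cells, and lower levels of naive T cell genes. A gene was called, by size alone, when its ratio passed 1.5-fold the same way at both ages with at least 50 UMIs in all. Of 4318 genes, 463 (10.7%) were called higher and 83 (1.92%) lower. Since the receptor sum separated the groups, these counts describe the split and are no test. Under median-of-ratios scaling, which moves the ratios down by 0.24 and 0.21 on the log2 scale (1.18-fold and 1.16-fold), 237 genes were called higher and 234 lower, so that 50.3% of the calls were higher against 84.8% without that scaling. The median log2 ratio over all genes was 0.22 at 7 weeks and 0.18 at 12 weeks, and the ratios below are to be read against it. Without class II-rich cells the counts were 490 (12.0%) and 86 (2.11%). The counts called in each list below are to be read beside these shares of all genes.

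Among chemokines, Ccl4, which draws T cells and macrophages, stood at 1693 and 2058 CPM in receptor-positive cells against 118 and 304 CPM in receptor-low cells. Its ratios were 14.3 (10.1 to 20.98) and 6.77 (5.63 to 8.19), and 1 cell held 32.0% of its UMIs at 7 weeks. Ccl3, its neighbour on chromosome 11, stood at 398 and 364 CPM against 78.9 and 60.3 CPM, ratios of 5.05 (3.21 to 8.30) and 6.03 (3.99 to 9.53). Xcl1, which attracts cross-presenting dendritic cells through XCR1, stood at 826 and 1176 CPM against 215 and 234 CPM, ratios of 3.84 (2.90 to 5.15) and 5.03 (4.07 to 6.28). The 3 were higher at both ages, and without the cell that held most of each gene's UMIs the ratios were between 4.13 and 11.9. In cells thinned to 2000 UMIs, Ccl4 was found in 54.0% and 50.3% of receptor-positive cells, 20.5% and 20% of receptor-low cells and 7.0% and 4.05% of B cells. The unthinned shares in receptor-positive cells were 80.0% and 68.3%.

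Cytokines were less uniform. Ifng, the gene of interferon-gamma, stood at 328 and 238 CPM against 254 and 128 CPM, with ratios of 1.29 (0.953 to 1.75) and 1.86 (1.37 to 2.56). The ratio at 7 weeks was close to the shift of all genes. Tnf was sparse, at 19.0 and 26.5 CPM, and Il2 at 35.2 and 20.8 CPM. Tnfsf11, the gene of RANKL, stood at 24.4 and 23.7 CPM against 7.17 CPM and 0 UMIs in receptor-low cells. Of 6 cytokine and chemokine genes with enough UMIs, 4 were called higher and 0 lower, with a median log2 ratio of 0.71 and 1.21 over the 14 of 17 listed genes that had 10 or more UMIs. Besides the 3 chemokines above, Cxcl10 was called, and it was not called without class II-rich cells.

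Inhibitory receptors that the rule did not use, taken here together with the ligand gene Cd200, were higher too. Cd160, a receptor for HVEM, stood at 130 and 213 CPM against 39.4 and 17.6 CPM, ratios of 3.30 (1.69 to 7.04) and 12.1 (5.78 to 30.5). Cd200, the ligand of an inhibitory receptor of myeloid cells, stood at 100.2 and 134 CPM against 17.9 and 25.1 CPM, ratios of 5.59 (2.19 to 18.2) and 5.32 (2.81 to 11.3). Ctla4, which competes for the ligands of CD28, stood at 84.0 and 68.2 CPM against 17.9 and 20.1 CPM, and Klrc1, the gene of NKG2A, at 214 and 231 CPM against 96.8 and 90.5 CPM. Cd5, which tunes T cell receptor signals, stood at 163 and 204 CPM against 89.6 and 113 CPM. All 5 were past 1.5-fold at both ages. Of 7 listed genes with 50 or more UMIs, 5 were called higher and 0 lower, and the median log2 ratio over 16 of 18 listed genes was 0.98 and 0.79. Tigit, with 4 and 8 UMIs, was too sparse to compare.

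Tox stood at 282 CPM (230 to 341) and 275 CPM (244 to 308) in receptor-positive cells and at 35.8 and 47.8 CPM in receptor-low cells. The ratios were 7.86 (4.11 to 16.9) and 5.75 (3.62 to 9.70). Naive-type cells had 49.4 and 18.4 CPM and cycling cells 185 and 187 CPM, so the order at both ages was receptor-positive, then cycling, then the other groups. Its relative Tox2 stood at 54.2 and 58.8 CPM against 10.8 and 10.1 CPM. Batf, an AP-1 partner in effector and exhausted cells, stood at 301 and 306 CPM against 82.4 and 123 CPM. Rbpj, the DNA-binding partner of Notch, stood at 119 and 91.0 CPM against 21.5 and 42.7 CPM, and Nr4a2, an orphan nuclear receptor induced by T cell receptor signals, at 173 and 208 CPM against 100.4 and 55.3 CPM. These 5 were past 1.5-fold at both ages. Eomes (114 and 63.5 CPM against 71.7 and 47.8) and Tbx21 (24.4 and 23.7 CPM against 39.4 and 20.1), the T-box factors of effector cells, were not. Over the 20 listed factors the median log2 ratio was 0.86 and 1.06, and 8 of 15 with enough UMIs were called higher and 0 lower.

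Genes of naive and stem-like cells were lower. Lef1, which acts with TCF-1, stood at 16.3 and 43.6 CPM against 151 and 266 CPM in receptor-low and 412 and 622 CPM in naive-type cells. Its ratios to receptor-low cells were 0.108 (0.0375 to 0.255) and 0.164 (0.113 to 0.233). Ccr7, a chemokine receptor of lymph node homing, stood at 27.1 and 18.0 CPM against 111 and 118 CPM. It helped define the naive-type cells, as did Lef1, and neither was in the rule for the receptor-positive or receptor-low cells. Il7r, the survival receptor of naive and memory cells, stood at 59.6 and 59.7 CPM against 197 and 269 CPM, and Klf2, which drives exit from tissue, at 24.4 and 23.7 CPM against 125.5 and 100.55 CPM. Tcf7 was closer, at 100.2 and 134 CPM against 176 and 204 CPM, ratios of 0.571 (0.362 to 0.892) and 0.656 (0.496 to 0.873). Of 12 listed genes with enough UMIs, 7 were called lower and 0 higher, and the median log2 ratio over 15 of 16 was -1.65 and -1.59. Slamf6, another gene of the TCF-1 subset, did not go with them, with ratios of 1.61 (1.03 to 2.58) and 0.695 (0.529 to 0.919).

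**Figure D3:**
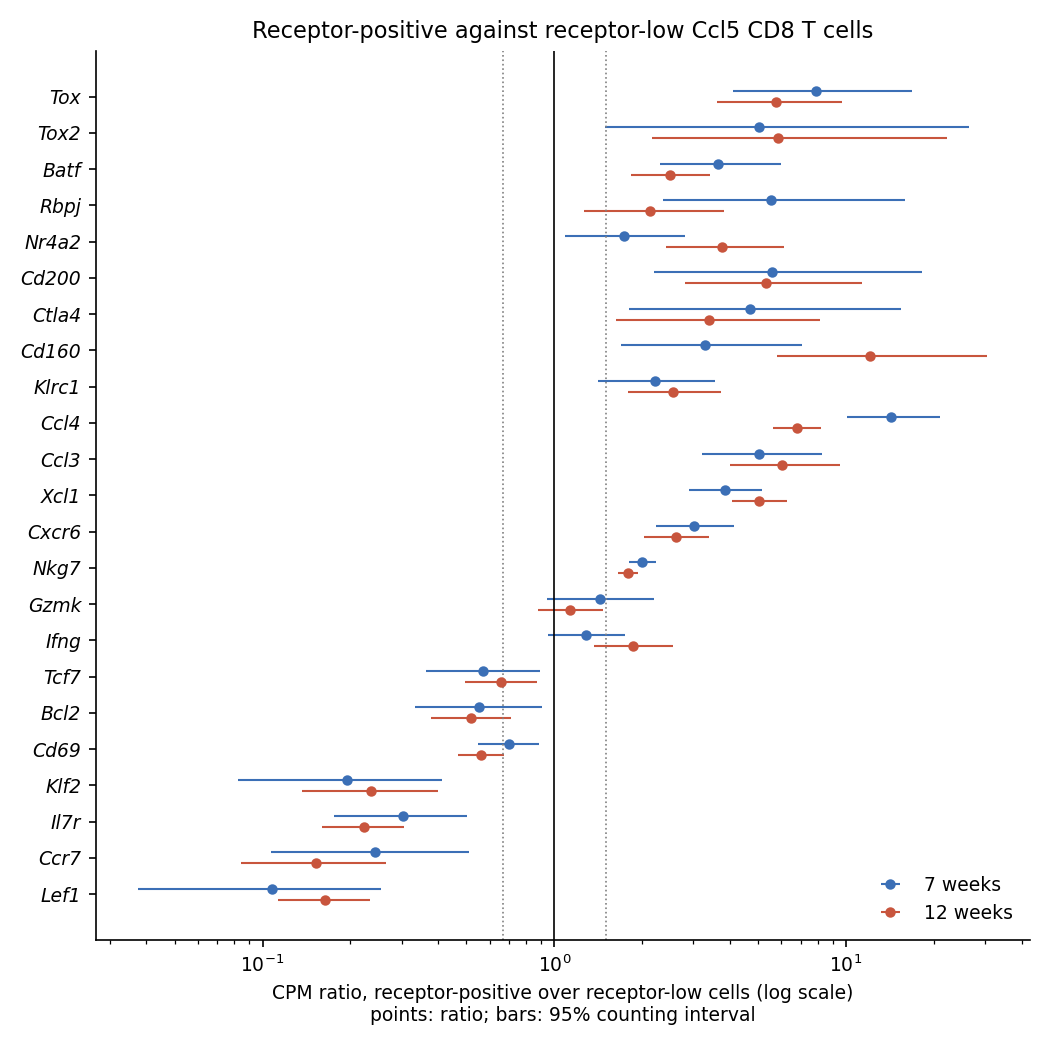
Ratio of CPM in receptor-positive over receptor-low cells at 7 and 12 weeks for 23 genes on a log scale, with 95% counting intervals as bars, a solid line at 1 and dotted lines at 1.5-fold either way. Ccl4 had ratios of 14.3 and 6.77 and Lef1 ratios of 0.108 and 0.164, while the intervals of Gzmk include 1 at both ages.

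Granule genes differed in direction. Nkg7, a cytotoxic granule protein, stood at 3266 and 3475 CPM against 1631 and 1938 CPM, ratios of 2.003 (1.80 to 2.24) and 1.79 (1.66 to 1.94). Gzmb stood at 271 and 170 CPM against 89.6 and 20.1 CPM, but only 11 and 32 receptor-positive cells had a UMI and 1 cell held 61.0% of them at 7 weeks. Gzmk, a granzyme of less differentiated effector cells, stood at 190 and 242 CPM against 133 and 214 CPM, with ratios of 1.43 (0.947 to 2.19) and 1.13 (0.881 to 1.46). Gzmm had 0 UMIs at 7 weeks and 12.3 CPM at 12 weeks in receptor-positive cells, against 43.0 and 65.4 CPM. Against a floor of 3 UMIs over the group it was at least 5.29-fold lower at 7 weeks, and at 12 weeks its ratio was 0.188 (0.0889 to 0.380). Of 16 cytotoxic genes with enough UMIs, 4 were called higher and 1 lower; without class II-rich cells these were 7 and 0 of 14.

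Tissue positioning genes also differed in direction. Cxcr6, a chemokine receptor of tissue-resident T cells, stood at 582 and 479 CPM against 194 and 184 CPM, ratios of 3.01 (2.22 to 4.13) and 2.61 (2.04 to 3.38). Cd69, which holds cells in tissue, was lower, at 366 and 288 CPM against 523 and 513 CPM, ratios of 0.699 (0.549 to 0.889) and 0.562 (0.469 to 0.674). S1pr1, the exit receptor that CD69 opposes, stood at 27.1 and 28.4 CPM against 108 and 72.9 CPM. Itgae, the integrin chain CD103, was sparse at 37.9 and 8.53 CPM. Cxcr3, the receptor for CXCL9 and CXCL10, stood at 187 and 194 CPM against 122 and 194 CPM. Of 7 tissue residence genes with enough UMIs, 3 were called higher and 0 lower. Of 12 chemokine receptor and adhesion genes these were 2 and 0. Without class II-rich cells the counts were 4 and 1 of 7, and 2 and 1 of 12. S1pr1 was in neither list.

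Among costimulatory receptors, Tnfrsf9 (4-1BB), induced by T cell receptor signals, stood at 51.5 and 133 CPM against 0 UMIs and 30.2 CPM. It was at least 4.79-fold higher at 7 weeks against a floor of 3 UMIs over the group, and 4.40-fold (2.44 to 8.72) at 12 weeks. Tnfrsf1b stood at 78.5 and 55.9 CPM against 28.7 and 20.1 CPM, and Icos at 67.7 and 73.0 CPM against 21.5 and 47.8 CPM. Of 10 genes with enough UMIs, 4 were called higher and 0 lower.

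In the T cell receptor pathway, 6 of 20 genes were called higher and 0 lower, with median log2 ratios of 0.55 and 0.32. Sh2d2a, an adaptor that binds LCK, stood at 260 and 334 CPM against 93.2 and 111 CPM, and Zap70, the kinase of the CD3 chains, at 222 and 186 CPM against 86.0 and 108 CPM. Cblb, a ubiquitin ligase that limits the signal, stood at 65.0 and 35.1 CPM against 21.5 and 15.1 CPM. The other 3 called were Lat, Ubash3a and Sla.

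Survival genes differed in direction. Bcl2, which keeps resting T cells alive, stood at 81.3 and 94.8 CPM against 147 and 184 CPM. Fas, the death receptor, stood at 92.1 and 117 CPM against 28.7 and 45.2 CPM. Of 11 survival and apoptosis genes with enough UMIs, Fas, Bax and Pmaip1 were called higher and Bcl2 lower, and the list's median log2 ratio at 12 weeks was 0.13 but -0.08 under median-of-ratios scaling.

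Of 14 NF-kappaB feedback genes with enough UMIs, 3 were called higher and 0 lower. Bcl2a1b, an anti-apoptotic BCL2 relative, stood at 385 and 484 CPM against 168 and 106 CPM, and Bcl2a1d at 230.2 and 262 CPM against 100.4 and 22.6 CPM. These are near-identical copies, so how the reads were shared between them is uncertain. The third was Tnip3. The list's median log2 ratio at 7 weeks was -0.40 with the class II-rich cells and 0.16 without them.

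Of 14 interferon-gamma targets with enough UMIs, Irf1, Gbp2 and Igtp were called lower and Cxcl10 higher, with Irf1 at 173 and 118 CPM against 283 and 204 CPM. Without class II-rich cells 2 of 13 interferon-gamma targets were called lower and 0 higher. Of 12 type I interferon targets 2 were called higher, Isg20 and Isg15, and 0 lower. Without class II-rich cells 2 of 12 were called higher and 1 lower. Isg15, a ubiquitin-like protein, stood at 165 and 83.4 CPM against 64.5 and 40.2 CPM, and 1 cell held 31.1% of its UMIs at 7 weeks. Socs3, the feedback inhibitor of STAT3, stood at 43.3 and 68.2 CPM against 133 and 206 CPM, ratios of 0.327 (0.170 to 0.602) and 0.331 (0.238 to 0.460). Il10, which IL-27 induces in T cells, had 2 and 6 UMIs.

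Among glycolytic genes, 3 of 11 with enough UMIs were called higher and 0 lower, with Gapdh at 1387 and 1314 CPM against 606 and 726 CPM and Pkm at 417 and 562 CPM against 226 and 256 CPM. Cycling cells had more, with Gapdh at 2425 and 2233 CPM. Of the immediate-early and stress genes, 1 of 20 was called lower, Hspa1b, and 0 higher.

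By the rule that took the called genes farthest from 1 in counting error, 12 genes were named in each direction. Higher were Ccl4, Rgs16, Tox, Ccl3, Stmn1, Xcl1, S100a6, Plek, Tnfrsf9, Phactr2, Mcm6 and Capg. Rgs16, a brake on chemokine receptor signalling, stood at 458 and 445 CPM against 60.9 and 67.9 CPM, and S100a6, a calcium-binding protein, at 2191 and 1582 CPM against 652 and 498 CPM. Stmn1 and Mcm6, which serve the mitotic spindle and DNA replication, stood at 179 and 141 CPM and at 200.4 and 199 CPM, against 21.5 and 25.1 CPM and 50.2 and 37.7 CPM, although the rule left out cells with 4 or more cycle UMIs. Lower, among others, were Lef1, Gzmm, Klf2, Il7r, Ccr7, Kbtbd11, Tmsb10, Txk, Arl4c, Socs3 and Fam101b. Tmsb10, an actin-binding peptide, stood at 3405 and 2799 CPM against 7581 and 5515 CPM, and Txk, a TEC-family kinase, at 103 and 70.1 CPM against 265 and 324 CPM. Without class II-rich cells 12 of the 12 higher and 11 of the 12 lower genes stayed called. Gzmm, the one that did not, kept ratios of 0 and 0.172 but had fewer than 50 UMIs.

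Cycling CD8 T cells, most of which carried the same receptors, differed in level. Ccl5 stood at 4368 and 5794 CPM there, against 15151 and 16052 CPM in the receptor-positive cells. Il7r was nearly absent, at 4.06 and 4.60 CPM, and Tcf7 stood at 60.9 and 41.4 CPM. Gzma, with 16.3 and 73.9 CPM in receptor-positive cells, stood at 227 and 516 CPM in cycling cells. Xcl1 stood at 948 and 1185 CPM in cycling cells, and its ratios of receptor-positive over cycling cells were 0.871 (0.752 to 1.01) and 0.992 (0.917 to 1.07). The groups differ by the cycle gate and by the depth given above. Of the cycling cells, 2 of 23 and 5 of 58 were class II-rich, and the levels of cycling cells include them.

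Within the receptor-positive cells at 12 weeks, few cells with Havcr2 carried Tcf7. Class II-rich cells were left out here, since they held 10 of the 74 Havcr2 UMIs. A Tcf7 UMI was seen in 1 of 30 cells with a Havcr2 UMI (3.33%, 0.0844 to 17.2) and in 60 of 109 without (55.0%, 45.2 to 64.6), and the levels were 5.30 and 183 CPM, a ratio of 0.0290 (0.000729 to 0.164). With the class II-rich cells the counts were 2 of 35 and 60 of 110. Slamf6 stood at 58.3 against 179 CPM, a ratio of 0.326 (0.159 to 0.602). Gzmb stood the other way, at 466 against 71.0 CPM, a ratio of 6.57 (4.63 to 9.40), and was seen in 16 of 30 cells against 14 of 109. Cxcr6 stood at 1097 against 369 CPM, a ratio of 2.97 (2.47 to 3.57), and was seen in 28 of 30 cells. Ifng had a ratio of 2.004 (1.52 to 2.63) and Gzmk of 1.72 (1.295 to 2.28), while the intervals of Tox (1.11, 0.820 to 1.48) and Cd160 (1.20, 0.857 to 1.64) include 1. Median UMIs were 5563.5 with and 5963 without Havcr2, and a cell without Havcr2 had to reach the receptor limit through Pdcd1 and Lag3.

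**Figure D4:**
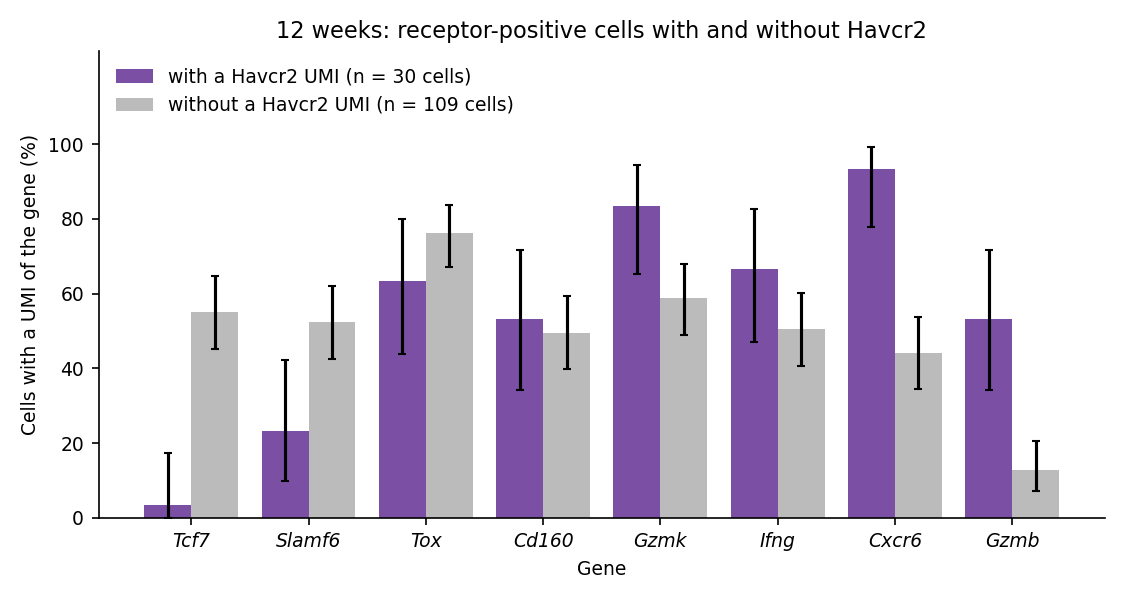
Percent of receptor-positive cells at 12 weeks with at least 1 UMI of each gene, for 30 cells with and 109 cells without a Havcr2 UMI, class II-rich cells left out, with exact binomial 95% intervals as bars. Tcf7 was found in 3.33% and 55.0% of them and Cxcr6 in 93.3% and 44.0%.

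At 7 weeks only 7 cells had a Havcr2 UMI too few to show or exclude the same pattern. Tcf7 was seen in 2 of 7 cells with Havcr2 and 15 of 43 without, a ratio of levels of 0.842 (0.256 to 2.18). Gzmb was seen in 4 of 7 and 7 of 43 cells, and its ratio of 13.2 rested on 1 cell with 85.9% of the UMIs. The difference between the ages was not tested. At 12 weeks, without class II-rich cells, 61 cells had Tcf7, 30 had Gzmb and 2 had both. At 7 weeks these were 17, 11 and 2 cells.

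The level of Tox was higher in cells with a Pdcd1 UMI. At 7 weeks Tox stood at 333 CPM in 42 cells with and 58.3 CPM in 8 cells without Pdcd1, and at 12 weeks, without class II-rich cells, at 338 CPM in 104 and 183 CPM in 35 cells, ratios of 5.70 (2.16 to 21.3) and 1.84 (1.34 to 2.59). The share of cells with a Tox UMI at 12 weeks was close, 77 of 104 (74.0%) against 25 of 35 (71.4%), and the 8 cells at 7 weeks held 4 Tox UMIs. Cells without Pdcd1 had to reach the receptor limit through Lag3 and Havcr2. Cxcr6 had ratios of 1.90 (1.23 to 3.08) and 2.58 (1.96 to 3.46). The ratios of Tcf7 were 0.616 (0.289 to 1.43) and 0.9702 (0.660 to 1.45), and both intervals include 1. Too few cells lacked Lag3 (4 and 9) for that split to be described.

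Between the ages, the genes named as higher in the receptor-positive cells at 12 weeks rested mostly on the class II-rich cells. Of 3368 genes with 50 or more UMIs, 354 (10.5%) were past 1.5-fold higher and 222 (6.59%) lower at 12 weeks. Under median-of-ratios scaling these were 288 and 271, so that 51.5% of the calls were higher against 61.5%. The 12 genes named as higher were Cxcl9, Cd74, Lyz2, Aif1, H2-Aa, H2-Ab1, H2-Eb1, Il1b, Plac8, Tyrobp, Ifitm3 and Grn. Cd74, the invariant chain, stood at 94.8 and 1611 CPM, but at 76.9 CPM at 12 weeks without those 6 cells, and its ratio went from 17.0 to 0.811. H2-Aa went from 10.4 to 0.929 and Tyrobp from 10.3 to 0.907. Without them 1 of the 12 genes stayed called as higher, Plac8 at 2.06 (1.04 to 4.54), while Lyz2, at 2.49 (0.962 to 8.18), had fewer than 50 UMIs, and 256 genes of 3114 (8.22%) were higher and 203 (6.52%) lower.

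**Figure D5:**
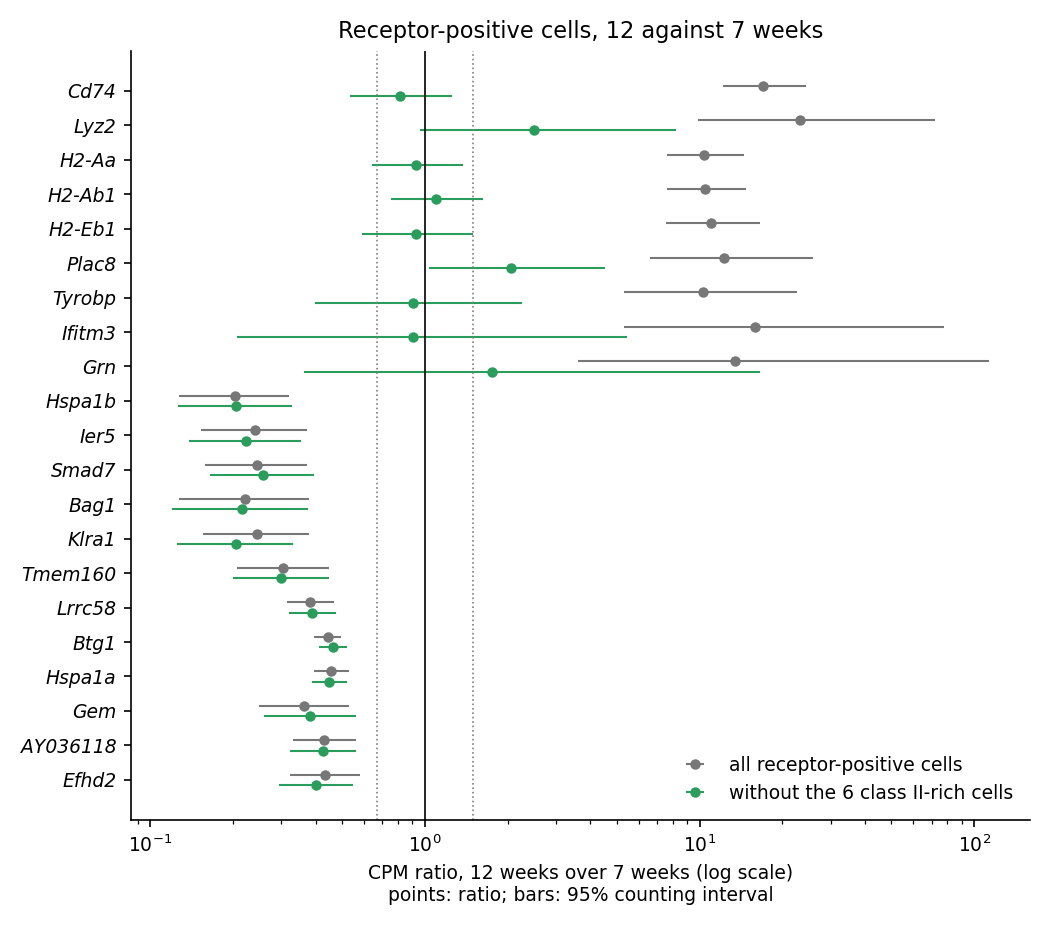
Ratio of CPM at 12 over 7 weeks in the receptor-positive cells on a log scale, with 95% counting intervals as bars, for the named genes with a UMI at 7 weeks, in all cells and without the 6 class II-rich cells. Cd74 moves from 17.0 to 0.811. The lower genes, such as Hspa1b at 0.204 and 0.205, could move up only slightly, since leaving out those cells raises a 12 week CPM little at most.

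Without the class II-rich cells, 12 genes were named as higher at 12 weeks by the same rule. Tnfrsf9 stood at 51.5 and 142 CPM, a ratio of 2.76 (1.70 to 4.73), and Tnfrsf4 (OX40) at 13.5 and 62.1 CPM, a ratio of 4.59 (1.86 to 14.6) from 5 UMIs at 7 weeks. Xcl1 stood at 826 and 1298 CPM, a ratio of 1.57 (1.39 to 1.79), where receptor-low cells had 1.03 (0.739 to 1.45). For Xcl1, 1 receptor-positive cell held 22.6% of the UMIs at 7 weeks and 1 held 25.5% at 12 weeks. Without these top cells its ratio was 1.52. Ctla2a, a cathepsin inhibitor of activated T cells, stood at 295 and 726 CPM, a ratio of 2.46 (2.01 to 3.04), with 1.58 (1.22 to 2.05) in receptor-low cells. Gzma had a ratio of 4.80, but 1 cell held 81.1% of its UMIs at 12 weeks and the ratio was 1.33 without the top cells. Also named were PISD, Rfc1, Psmd12, Tnip3, Dok1, Ifi27 and Adss, with ratios between 1.93 and 3.65. Among listed genes outside that rule, Cd160 had a ratio of 1.81 (1.32 to 2.52) and Lef1, from 6 UMIs at 7 weeks, 2.85 (1.21 to 8.19).

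The 12 genes named as lower at 12 weeks stayed past 1.5-fold without the class II-rich cells, but this was fixed in advance. Among receptor-positive cells, all class II-rich cells were at 12 weeks, and leaving them out can raise a CPM there only slightly. The genes named as lower were Hspa1b, Ier5, Smad7, Bag1, Klra1, Tmem160, Lrrc58, Btg1, Hspa1a, Gem, AY036118 and Efhd2. Hspa1b and Hspa1a, heat shock chaperones that are near-identical copies, stood at 149 and 30.3 CPM and at 894 and 407 CPM. Ier5, an immediate-early gene, stood at 146 and 35.1 CPM, and Btg1, an antiproliferative gene of resting cells, at 1484 and 658 CPM. In receptor-low cells without class II-rich cells the 12 over 7 week ratios were 0.256 for Hspa1b, 0.311 for Ier5 and 0.609 for Btg1, against 0.205, 0.223 and 0.462 in receptor-positive cells. Smad7, which restrains TGF-beta signals, had 0.257 (0.165 to 0.396) in receptor-positive and 0.745 (0.457 to 1.22) in receptor-low cells, and Klra1, a Ly49 receptor, 0.205 (0.125 to 0.331) and 1.19 (0.697 to 2.07). The difference between the groups was not tested, and Ly49 genes are near-identical copies.

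By list, without the class II-rich cells and beside a median log2 ratio of 0.05 over all genes, immediate-early and stress genes had a median of -0.35 with 6 of 18 called lower and 0 higher. Over all genes, 8.22% were called higher and 6.52% lower. Type I interferon targets had a median of -0.54 with 2 of 11 called lower and 0 higher, and with the class II-rich cells a median of -0.28 with 1 of 11 called lower and 1 higher. Without those cells Isg15 stood at 165 and 67.4 CPM, and the ratio of Ifit1 was 0.320 (0.146 to 0.690), from 17 UMIs in 4 cells at 7 weeks. The level of Isg15 at 7 weeks rested in large part on 1 cell, as given above. In receptor-low cells Isg15 had a ratio of 0.593. Exhaustion and effector factors had a median of -0.13, with Tox at 1.06 (0.842 to 1.34) and Batf at 1.08 (0.866 to 1.35), and with Eomes at 0.611 (0.409 to 0.922), Runx3 at 0.629 (0.491 to 0.808) and Maf at 0.233 (0.104 to 0.501). Of 12 factors with enough UMIs 2 were called lower, Eomes and Runx3, and 0 higher. Maf had too few UMIs to be called. Over the 14 inhibitory receptors with 10 or more UMIs the median was 0.18, and over glycolytic genes it was -0.02. Interferon-gamma targets had a median of 0.14 with the class II-rich cells and -0.02 without them.

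Transcripts of pancreatic cells, which T cells do not make, were also higher at 12 weeks. The 15 acinar transcripts together stood at 29.8 and 251 CPM in receptor-positive cells, with 5 and 15 of them detected, and the 10 endocrine transcripts to 43.3 and 147 CPM. Gcg, the glucagon gene, stood at 2.71 and 59.7 CPM, with 3.58 and 80.4 CPM in receptor-low cells. The part of free RNA in the other age differences was not tested.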

How the data were processed

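Libraries of 2 ages, 1 each, were analysed. The deposited values were raw UMI counts per gene and barcode, made with Cell Ranger 1.3.1 on mm10, per the submitters' processing notes. The 27998 genes and 1113 and 2812 barcodes held 8701184 and 19288252 UMIs, and 4 and 8 barcodes were left out for too few genes or too many mitochondrial UMIs. No doublet caller was run, and the gates on Cd4 and Cd79a were the only guard. UMIs were summed per group of cells and scaled to CPM. Exact Poisson, Clopper-Pearson and conditional binomial 95% intervals cover counting error only. List medians use genes with at least 10 UMIs, with 0.5 UMI added to each sum. For each comparison the 12 called genes in each direction whose interval lay farthest from 1 were named, leaving out rule, mitochondrial, ribosomal, haemoglobin, acinar, endocrine and predicted genes. Of these, 1 gene and some marker genes are not reported here. Gene coordinates were matched for 418 of 418 genes. The 365 of 367 listed genes with a symbol, the members and the lists were chosen with earlier results of these data known, and the limit of 10 class II UMIs after seeing the data. The ratio engine was tested on simulated data. Python 3.11.15, numpy 2.4.6, scipy 1.17.1, pandas 2.3.3 and matplotlib 3.10.9 were used.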

Additional observations from a re-analysis of the deposited data

Results flagged for a closer look

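For 15 genes the ratio of receptor-positive to receptor-low cells lay past 1.5-fold in opposite directions at the ages. The share of all genes that did so is not given here, so whether 15 is many cannot be told. The difference between the ages was not tested. Without the class II-rich cells, which were 2 of the receptor-low cells at each age and 6 of the receptor-positive cells at 12 weeks, 3 genes (Id3, Klra1 and Fcer1g) kept opposite directions past 1.5-fold, Fcer1g with at most 4 UMIs in the receptor-low cells at 12 weeks. Id3, an inhibitor of E proteins, had ratios of 0.496 and 2.003, and without those cells 0.472 and 2.007. Klra1, a Ly49 receptor, had ratios of 1.74 and 0.340, and without those cells 1.61 and 0.278.

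The others were mostly class II and myeloid genes. Cd74 had ratios of 0.0792 and 5.88, H2-Aa of 0.102 and 5.45, H2-Ab1 of 0.135 and 5.28, and H2-Eb1 of 0.118 and 6.14, and without the class II-rich cells these 4 lay between 0.802 and 1.39. Lyz2 had 0.199 and 7.82, Cst3 0.384 and 3.65, Tyrobp 0.219 and 3.02, Fcer1g 0.364 and 6.41, Ifitm3 0.151 and 12.8, Grn 0.0945 and 1.94, and Plac8 0.0849 and 1.95. Without those cells Plac8 had 0.158 and 0.490 and Fcer1g 0.566 and 2.03. Aif1 had a ratio of 0 at 7 weeks, where receptor-positive cells held no UMI, and 31.7 at 12 weeks. Without those cells it had too few UMIs for a direction to be read. Cxcl9 had a ratio of 0 at 7 weeks, and at 12 weeks its UMIs were in receptor-positive cells and 0 in receptor-low cells.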

How the results depend on the processing

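Of 50 alternative values for the shares, the counts of called genes and the number of lists with a median above 0, 39 stayed within the limits set (1.5 times for a count, the counting interval for the share) and 11 did not; the cause was not tested beyond what each setting does by construction. The ratio of shares stayed between 1.15 and 1.25. For 12 over 7 weeks, the 354 higher and 222 lower genes became 969 and 690 with at least 20 UMIs and 94 and 86 with at least 100 UMIs, and 227 were higher in cells of 3000 to 10000 UMIs. For receptor-positive over receptor-low cells, the 463 higher and 83 lower genes became 237 and 234 under median-of-ratios scaling, 890 and 221 with at least 20 UMIs, and 240 and 39 with at least 100 UMIs. Without the cell holding most UMIs of each gene, 490 genes were higher and 183 lower with age, so that 72.8% of the calls were higher against 61.5%.

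Of 162 list medians, 89 stayed within 0.1 on the log2 scale, 69 did not, and 4 that were at least 0.1 from 0 turned direction. These were interferon-gamma targets with age (-0.020) and NF-kappaB genes at 7 weeks (0.16) without class II-rich cells, and IL-27 and STAT genes at 7 weeks (-0.064) and survival genes at 12 weeks (-0.077) under median-of-ratios scaling. Among named genes, age ratios turned without class II-rich cells for Cd74 (0.811), H2-Aa (0.929), H2-Eb1 (0.930), Tyrobp (0.907) and Ifitm3 (0.907), and in cells of 3000 to 10000 UMIs for Cd74 (0.955), H2-Ab1 (0.971) and Tyrobp (0.764). Of 542 values for named genes, 488 stayed within the counting interval, and no ratio was formed where the other group held 0 UMIs. No paired analysis was possible because there was 1 library per age and no test. With 50 cells at 7 weeks, the age ratio of a gene carried by few cells has a wide interval.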
